A study of Drosophila melanogaster with 6 samples.

Results

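The genes of the cytosolic ribosome were followed in fat bodies of adult female Drosophila melanogaster in which Dp110, the catalytic subunit of the class I phosphoinositide 3-kinase of the insulin pathway, had been inhibited. The genes were all rows of the count table whose FlyBase identifier carries a current symbol starting with RpL or RpS, together with sta, which encodes the small-subunit protein RpSA. Mitochondrial ribosomal proteins were left out. The rule found 88 genes of the 15682 in the table. The reference name table holds 93 such symbols, and RpL19, RpL27A, RpL31, RpS10b and RpS12, whose current identifiers are no row of the table, were not analysed here. For description, the 88 genes were divided into 41 genes of the large subunit, 30 of the small subunit, 3 of the stalk and 14 second copies. A second copy is the member of a pair of related genes that was set against the other, which is called the first copy here.

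FB-Dp110DN flies carried a fat body GAL4 driver and a UAS transgene for myc-tagged, kinase-defective Dp110, and FB-GAL4 flies carried the driver without the transgene. All flies were females of 7 to 10 days in the white Dahomey background, were positive for Wolbachia and were kept at 25 °C. By the series description each group had 3 libraries of 5 pooled flies, whereas the study's methods give a larger number of fat bodies. The methods pair mutant and control samples by processing day without naming their numbers. Same-numbered libraries were taken as the pairs here, which is an assumption. The control lacked the transgene insertion itself, so an effect of the insertion cannot be told apart from that of the protein. Libraries held between 22607341 and 36870161 counts.

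Each cytosolic ribosome is built from one copy of most of its proteins, with several copies only in the stalk that recruits elongation factors, and the genes for these proteins are among the most strongly transcribed in a growing cell. In flies, loss of a single copy of many of them gives the Minute phenotype of slow growth and short bristles. Insulin and TOR signalling promote growth largely through ribosome production and translation, and the adult fat body, which makes yolk, lipoproteins and immune peptides, is a tissue of high protein output. Some fly ribosomal proteins are encoded by a pair of genes, and RpS5b, RpS10a and RpS19b are known as the germline-enriched members of their pairs.

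The transgene was visible in every library labelled with it. Pi3K92E, the gene for Dp110, stood at 892, 1246 and 343 CPM (counts scaled by depth, here with TMM-scaled library sizes) in replicates 1, 2 and 3 of FB-Dp110DN. In FB-GAL4 it stood at 81.0, 89.9 and 94.1 CPM. The groups did not overlap, the log2 fold change was 3.05 (SE 0.40), and the adjusted p of the edgeR quasi-likelihood test was 0.157, which did not pass 0.05. It passed in the DESeq2 Wald test (adjusted p = 5.95e-17) and in the edgeR fit without replicate 3 (adjusted p = 1.75e-31, log2 fold change 3.63). In that edgeR fit every gene shared 1 quasi-dispersion and 8.45% of all genes were called, so its p-values are not comparable with those of the main fit.

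Libraries also differed in the summed levels of tissue marker genes. The 12 rows of the fat body list, which includes the yolk protein and lipophorin genes, summed to between 56300 and 74157 CPM in FB-Dp110DN and to 69052, 54201 and 23648 CPM in replicates 1, 2 and 3 of FB-GAL4, and no gene of the 7 marker lists was at or under 3 counts in every library. Summed muscle markers (16 genes) stood at 9558 to 42428 CPM in FB-Dp110DN and 6677 to 22685 CPM in FB-GAL4, with the highest value of each group in replicate 3. The muscle sum was higher in FB-Dp110DN in each of the 3 pairs. Of the 16 muscle genes, 15 had a higher estimate with an unadjusted edgeR p under 0.05, against 13.1% of all genes. At an adjusted p under 0.05 the count was 0, against 0.0289% of all genes. The part of these transcripts in the results that follow was not tested. Summed germline markers (17 genes) stood at 1071 to 1987 CPM against 1982 to 2261 CPM, and eggshell markers (16 genes) at 3271 to 4961 CPM against 3933 to 4487 CPM. Gut protease markers (17 genes) ranged from 5942 to 29246 CPM against 6325 to 24418 CPM. Hemocyte markers (7 genes) ranged from 369.9 to 454 CPM against 337 to 391.7 CPM, and neuron markers (6 genes) from 218 to 272 CPM against 163 to 192 CPM. At an unadjusted edgeR p under 0.05, 9 germline genes were lower, against 12.5% of all genes, and 0 higher. By the same measure 4 neuron genes were higher, against 13.1% of all genes, and 0 lower. In the fat body list 3 of 12 genes were higher and 1 lower by this measure. Its estimates were higher for 11 of the 12, against 53.5% of all genes. Of the tested genes, 2 of 16 gut protease and 2 of 7 hemocyte genes were higher by this measure and 0 lower. The eggshell list had 0 in either direction. The part of these lists in later results was not tested either. In such bulk samples, fewer cells of a type and less RNA per cell cannot be told apart.

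Ribosomal protein genes took a large part of every library. They held 8.01%, 8.49% and 5.98% of the counts in replicates 1, 2 and 3 of FB-Dp110DN and 8.40%, 8.33% and 6.80% in FB-GAL4. The lowest library of each group was replicate 3, where muscle markers were highest. The Wilson 95% interval of each share reached at most 0.0114 percentage points to either side, which covers counting error only, since PCR copies are not independent molecules. FB-GAL4 libraries averaged 7.84% ± 0.902 and those of FB-Dp110DN 7.49% ± 1.33 (SD, n = 3 each), a difference smaller than the spread between libraries (2-sided exact permutation test, p = 0.7, where 3 against 3 cannot go below 0.1). The differences of same-numbered libraries were -0.38, 0.15 and -0.82 percentage points, so that the pairs did not share a direction. The large subunit held 4.02% ± 0.743 of the counts in FB-Dp110DN against 4.19% ± 0.485 in FB-GAL4, and the small subunit 3.01% ± 0.516 against 3.17% ± 0.368 (SD, n = 3 each).

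**Figure D1:**
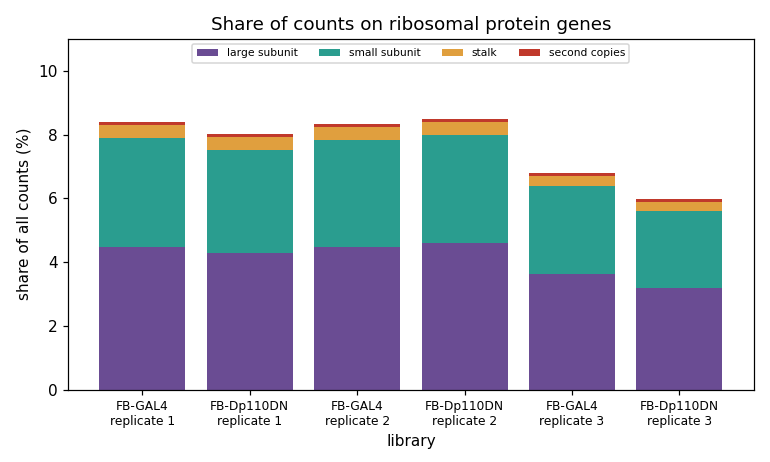
Share of all counts (%) that fell on ribosomal protein genes in each of the 6 libraries, stacked by large subunit, small subunit, stalk and second copies. The bars reach 8.01% to 8.49% in replicates 1 and 2 of both groups and 5.98% and 6.80% in replicate 3, and the second copies form the thin top layer.

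Once scaled by exon length, the 74 first copies and single genes lay in a narrow band of levels. Their median was 1126 CPM per kb of annotated exon, averaged over both groups, and 64 of the 74 lay within 2-fold of it. The same median over all 10398 genes tested was 12.2 CPM per kb. The highest member was RpL41, the gene of the shortest ribosomal protein, at 5013 CPM per kb. It was followed by RpL39, which encodes another very short protein of the large subunit, at 2143 CPM per kb and by RpS27A, which encodes ubiquitin fused to a small-subunit protein, at 2107 CPM per kb. RpLP2, a stalk protein gene, stood at 1717 CPM per kb and RpL23 at 1665 CPM per kb. Of the 74, the lowest was RpL28 at 364 CPM per kb, a gene named here after its values were seen, and next came RpL22 at 377 CPM per kb. RpL41 was the highest of the 74 in each of the 6 libraries, and the lowest was RpL28 in 4 libraries and RpL22 in 2. Exon lengths came from a later annotation than the one counted, so a level per kb is approximate.

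The gene set as the second copy had the lower level in each pair. The pairs were set with earlier results of these data known, so this order is not a result. The 8 that were tested ranged from 0.546 CPM per kb for RpS19b to 433 CPM per kb for RpS14b, which lay above RpL28 and RpL22, with a median of 134 CPM per kb. RpS14b stood at 86.4% of the per-kb level of RpS14a, its neighbour in a tandem pair that encodes the same protein, and counts may be divided between such near-identical genes in an uncertain way. RpL24-like stood at 44.5% of RpL24, RpS5b at 39.5% of RpS5a and RpL34a at 37.2% of RpL34b. RpLP0-like, RpS15Ab and RpL7-like stood at only 4.13%, 3.01% and 2.85% of RpLP0, RpS15Aa and RpL7. The relatives of RpL7-like, RpL24-like and RpLP0-like in yeast are factors of large-subunit assembly and no part of the mature ribosome.

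**Figure D2:**
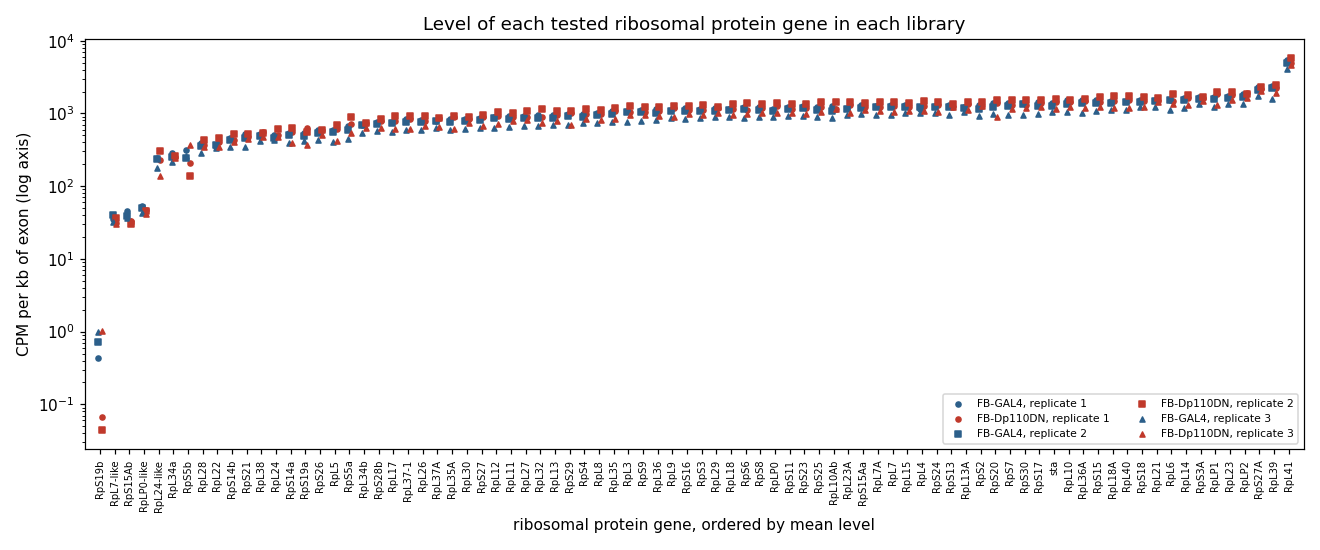
Level of each of the 82 tested ribosomal protein genes in each library, in CPM per kb of exon on a log axis, ordered by the mean. Blue marks are FB-GAL4, red marks FB-Dp110DN, and the shape gives the replicate. From RpL28 to RpL41 the levels rise from 364 to 5013 CPM per kb, and RpS19b stands far to the left at 0.546 CPM per kb.

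Whether ribosomal protein genes respond to lowered Dp110 signalling was read from the fit over all genes. None of the 82 tested genes was called, and their estimates lay close together. In edgeR, with the replicate number as a block, 0 of the 82 had an adjusted p under 0.05, where 0.0289% of all tested genes did (3 of 10398). At an unadjusted p under 0.05 the count was also 0, against 25.6% of all genes. The DESeq2 Wald test called 0 of them as well, against 9.55% of all genes, and 1 had an unadjusted p under 0.05 there. The edgeR count was also 0 of 82 with library totals (0.0385% of all genes), 0 of 85 with no filter (0.0687%), 0 of 81 with at least 10 counts in every library (0.0205%) and 0 of 81 without replicate 3 (8.45%). In the edgeR fits other than that without replicate 3, so few genes were called that a count of 0 says little. The lowest unadjusted edgeR p of the 82 was 0.0606, for RpS15Ab, with an adjusted p of 0.209.

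The estimates had a median log2 fold change of 0.13, with quartiles of 0.11 and 0.16, beside a median of 0.04 and quartiles of -0.26 and 0.36 over all genes tested. The estimate was higher in FB-Dp110DN for 76 of the 82, against 53.5% of all genes. All 74 first copies and single genes were among these 76, while 6 of the 8 second copies had a lower estimate. The sign itself rested on the scaling. With library totals in place of TMM factors the median over all genes moved by -0.22, and only 4 of the 82 ribosomal protein genes had a higher estimate. Relative to the median of all genes, the median of the 82 was 0.09 higher under both scalings, and 75 of the 82 lay above that median in both. A change of scaling moves all genes by nearly the same amount, so this agreement is no separate support. The difference was 0.16, 0.05 and 0.08 without replicates 1, 2 and 3. Above the median of all genes lay 75 of 83, 70 of 83 and 73 of 81 members in these fits.

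The intervals limit how large a change could be. For 81 of the 82 the 95% interval of the fold change lay within 2-fold in either direction, as it did for 67.0% of all genes, and RpS19b was the exception. Among the 74 first copies and single genes the lowest lower bound was -0.32 and the highest upper bound 0.72 on the log2 scale. The intervals included no change for each of the 82 genes, so that smaller shifts in either direction were not detectable with 3 libraries per group. No member was higher in every FB-Dp110DN library than in every FB-GAL4 library, against 11.6% of all genes, and 1, RpS15Ab, was lower without overlap, against 21.0%.

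**Figure D3:**
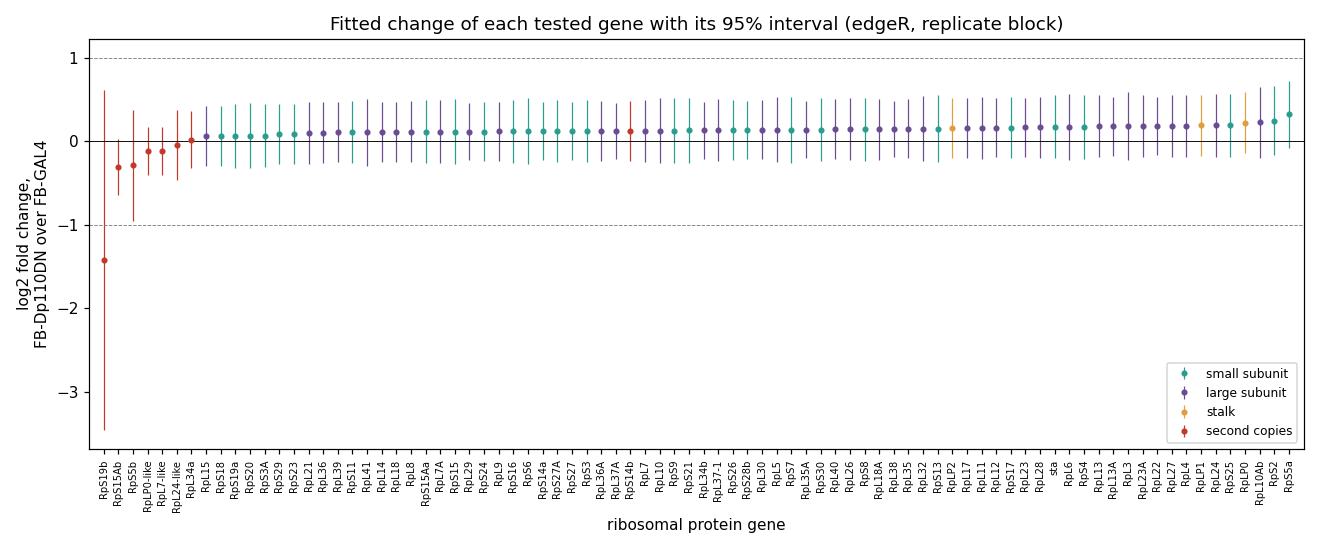
Fitted log2 fold change (FB-Dp110DN over FB-GAL4) of the 82 tested genes with 95% intervals, ordered by estimate and coloured by large subunit, small subunit, stalk and second copies. Dashed lines mark a 2-fold change. The 74 first copies and single genes sit between 0.06 and 0.32, every interval crosses 0, and the lowest points are second copies.

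The genes moved together within each pair of same-numbered libraries. Over the 74 first copies and single genes the median difference of log2 CPM was -0.02 in pair 1, 0.25 in pair 2 and 0.17 in pair 3, a mean of 0.13 ± 0.14 (SD, n = 3 pairs). The mean was therefore no larger than the spread between pairs. In pair 1 the estimate was higher for 30 of the 74, in pair 2 for all 74 and in pair 3 for 70. Within a pair the genes differed little. The interquartile range across them was 0.10, 0.09 and 0.12 in pairs 1, 2 and 3, against 0.43, 1.01 and 0.60 over all tested genes, whose lower counts also add to their spread. In each pair, 72, 73 and 69 of the 74 lay within 0.2 of the median. The same direction in all 3 pairs was seen as higher for 26 of the 82, against 28.3% of all genes, and as lower for 3, against 27.7%.

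Small-subunit genes had a median log2 fold change of 0.12 and large-subunit genes one of 0.14. RpS5a, which encodes a protein of the small-subunit head, had the highest estimate. It stood at 991, 1256 and 751 CPM in replicates 1, 2 and 3 of FB-Dp110DN and at 936, 826 and 622 CPM in FB-GAL4, so that it was higher in each pair while the groups overlapped. Its log2 fold change was 0.32 (SE 0.17, edgeR adjusted p = 0.265), and 0.18 without replicate 2. In pair 2 its difference of 0.60 was the largest of the 74 genes. RpS2, whose protein lies near the mRNA entry of the small subunit, stood at 1525, 1742 and 1542 CPM against 1560, 1411 and 1122 CPM. The log2 fold change of RpS2 was 0.24 (SE 0.17, edgeR adjusted p = 0.380), carried by pairs 2 and 3. RpS19a, needed for maturation of the small subunit, had differences of 0.21, 0.18 and -0.20 in the 3 pairs, the last being the lowest of the 74 genes in pair 3. The gene sta stood at 1944, 2097 and 1542 CPM against 1850, 1700 and 1405 CPM, with overlapping groups and a log2 fold change of 0.17 (SE 0.15, edgeR adjusted p = 0.493).

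Among large-subunit genes the smallest p-values belonged to RpL10Ab and RpL22. RpL10Ab, which encodes the protein of the L1 stalk near the tRNA exit, stood at 1122, 1372 and 1098 CPM against 1216, 1040 and 841 CPM. The pairs disagreed, with differences of -0.12, 0.40 and 0.38, and the log2 fold change was 0.22 (SE 0.17, edgeR adjusted p = 0.428). RpL22 stood at 440, 508 and 379 CPM against 379, 410.1 and 374 CPM, higher in each pair but with overlapping groups. Its log2 fold change was 0.18 (SE 0.14, edgeR adjusted p = 0.428). RpL32, known as RP49 and widely used as a reference gene in quantitative PCR, stood at 717, 911 and 593 CPM against 769.9, 697 and 532 CPM. Its log2 fold change was 0.15 (SE 0.16, 95% interval -0.24 to 0.54), with pair differences of -0.10, 0.39 and 0.16. The level of this reference gene thus varied by more between pairs than its mean difference between groups.

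The 3 stalk genes had higher values in every pair. RpLP0, the stalk base, stood at 1664, 1821 and 1358 CPM against 1532, 1432 and 1184 CPM, with a log2 fold change of 0.22 (SE 0.15, edgeR adjusted p = 0.374). RpLP1 stood at 1420.3, 1501 and 1014 CPM against 1302, 1215 and 927 CPM, with a log2 fold change of 0.19 (SE 0.15, edgeR adjusted p = 0.436). RpLP2 had differences of 0.06, 0.11 and 0.29 in the 3 pairs and a log2 fold change of 0.15. None of the 3 passed the test, the groups overlapped for each, and a difference between the stalk and the other genes was not tested. By chromosome arm, the median over first copies and single genes ran from 0.11 for the 15 genes on 2R to 0.14 for the 13 on 3L and the 16 on 3R, and RpS3A, a small-subunit gene and the only member on chromosome 4, was at 0.07.

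**Figure D4:**
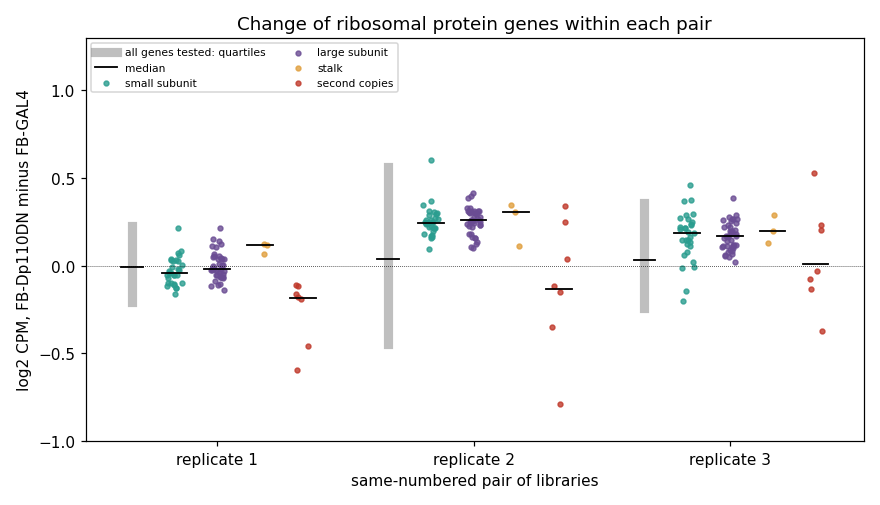
Difference of log2 CPM (FB-Dp110DN minus FB-GAL4) within each same-numbered pair, with 1 point per tested gene, short black lines for group medians and grey bars for the quartiles of all tested genes. RpS19b, at -1.66, -2.52 and 0.05, is left off the points but kept in the medians. The first copies and single genes cluster near -0.02 in pair 1, 0.25 in pair 2 and 0.17 in pair 3, while the second copies spread more widely.

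Second copies were also compared with their first copies, since the share of one in the pair is free of library scaling. Of 13 pairs with both rows in the table, 8 had more than 3 counts of the second copy in some library and were tested. In 5 of the 8 the share of the second copy was lower in FB-Dp110DN in all 3 same-numbered pairs, in the other 3 it was lower in 2 of the 3, and in 0 it was higher in all. Beside RpS15Ab and RpL34a, these 5 were RpL7-like, RpL24-like and RpLP0-like, whose yeast relatives are assembly factors and no part of the mature ribosome. The 8 shares are not independent, since first copies and single genes moved together, with medians of -0.02, 0.25 and 0.17 in the 3 pairs. A second copy that did not follow them lost share in pairs 2 and 3. All genes offer no such share for comparison. RpS15Ab took 2.04%, 1.66% and 2.18% of the pair's counts in FB-Dp110DN against 2.61%, 2.43% and 2.75% in FB-GAL4, with no overlap. RpLP0-like took 2.62%, 2.28% and 2.82% against 3.20%, 3.19% and 3.29%, again with no overlap. For both, the 2-sided exact permutation test gave p = 0.1, the smallest value that 3 against 3 allows, and 0.4 after Benjamini-Hochberg adjustment over the 8 pairs. These differences therefore could not pass the threshold in this design.

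RpL7-like fell short of separation, with 3.63%, 3.76% and 4.31% against 3.97%, 4.79% and 4.99% (exact permutation test, p = 0.2). RpL34a had 18.6%, 18.8% and 20.7% against 21.4%, 19.5% and 20.9% (exact permutation test, p = 0.2). RpL24-like, with 21.6%, 23.1% and 14.9% against 22.7%, 24.1% and 20.4%, owed its lowest value to replicate 3 of FB-Dp110DN. RpS14b, with 34.4%, 36.4% and 41.0% against 37.2%, 37.1% and 37.1%, showed almost no spread in FB-GAL4 and a wide one in FB-Dp110DN. Adjusted over the 8 pairs, the exact p-values of these 4 pairs ran from 0.4 to 1.

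**Figure D5:**
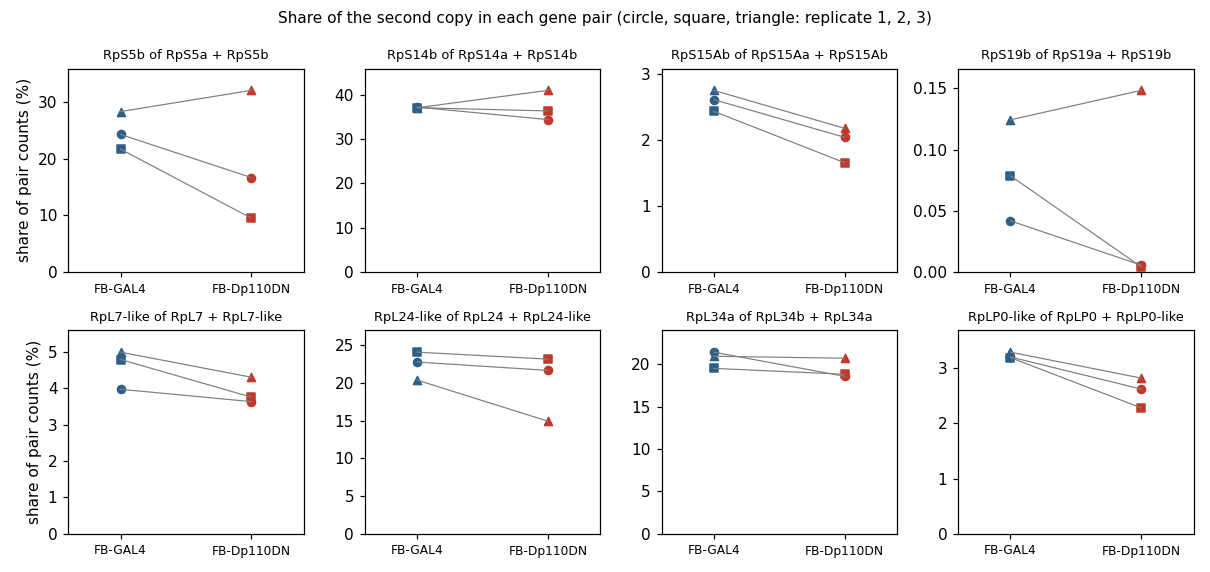
Share of the second copy in the counts of each of the 8 tested gene pairs (%), with FB-GAL4 in blue, FB-Dp110DN in red, grey lines joining same-numbered libraries and shapes for replicates 1, 2 and 3. RpS15Ab and RpLP0-like fall along all 3 lines without overlap of the groups, whereas RpS5b, RpS14b and RpS19b turn upwards in replicate 3.

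As single genes, 6 of the 8 tested second copies had an estimate below 0, where 4833 of all 10398 genes tested did. No other gene of the 82 had one, but the sign rests on the scaling. With library totals 78 of the 82 had an estimate below 0. The 6 second copies included RpL7-like, RpL24-like and RpLP0-like, the relatives of assembly factors. RpS15Ab stood at 23.9, 21.9 and 23.7 CPM in FB-Dp110DN and at 32.9, 27.9 and 26.0 CPM in FB-GAL4, lower in every library. Its log2 fold change was -0.32 (SE 0.14, 95% interval -0.65 to 0.02, edgeR adjusted p = 0.209), while that of RpS15Aa was 0.11. RpLP0-like, with 44.8, 42.5 and 39.4 CPM against 50.7, 47.3 and 40.3 CPM, had a log2 fold change of -0.12 (SE 0.12), and RpL7-like had the same estimate of -0.12 (SE 0.12). These 3 genes were the ones lower in all 3 pairs. RpL24-like was at -0.05 (SE 0.17), and at 0.12 without replicate 3. RpL34a was at 0.01 (SE 0.14) and RpS14b at 0.12 (SE 0.15).

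RpS5b, the germline-enriched counterpart of RpS5a, was the most variable member of substantial level. It stood at 198, 132 and 354 CPM in replicates 1, 2 and 3 of FB-Dp110DN and at 300.0, 229 and 246 CPM in FB-GAL4, so that FB-Dp110DN held both the lowest values and the highest. Its share of the pair's counts was 16.7%, 9.51% and 32.1% against 24.3%, 21.7% and 28.3%. The log2 fold change was -0.29 (SE 0.27, edgeR adjusted p = 0.507) with all libraries and -0.69 without replicate 3 (edgeR adjusted p = 0.0534). It was -0.10 without replicate 1 and -0.03 without replicate 2. The fit without replicate 3 called 8.45% of all genes, and its p-values are not comparable with those of the main fit. Ovary markers differed between the same libraries. Summed eggshell markers stood at 4161, 3271 and 4961 CPM in replicates 1, 2 and 3 of FB-Dp110DN and 4487, 3933 and 4370 CPM in FB-GAL4, and summed germline markers at 1550.3, 1071 and 1987 CPM against 1982, 2261 and 2156 CPM. Within each group the eggshell sum had the same order of libraries as RpS5b. The germline sum had the same order as RpS5b in FB-Dp110DN and the reverse order in FB-GAL4. Of the germline list 15 of 17 genes had a lower estimate, 9 of them with an unadjusted edgeR p under 0.05, against 12.5% of all genes. Of the eggshell list 10 of 16 genes had a lower estimate, and 0 of them had such a p. Their part in the level of RpS5b was not tested.

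RpS19b and RpS10a, also germline-enriched, were close to the detection limit. RpS19b had 1, 1 and 20 counts in FB-Dp110DN and 10, 12 and 21 counts in FB-GAL4, with a log2 fold change of -1.43 (SE 0.83, edgeR adjusted p = 0.306). RpS10a, which did not pass the filter on low counts, had 0, 4 and 14 counts against 3, 6 and 59 counts, and in the fit with no filter its unadjusted edgeR p was 0.0452 (adjusted p = 0.220). Both had their highest count of each group in replicate 3. The other 5 untested genes were second copies at or under 3 counts in every library. RpL10Aa, RpL37-2 and RpS28-like had 0 counts throughout, which in the shallowest scaled library allows a level of up to 0.132 CPM. RpL22-like had 0, 0 and 1 count against 1, 0 and 1, and RpS28a had 3 counts in replicate 1 of FB-Dp110DN and 0 in the other libraries.

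Genes that make, regulate or use the ribosome were listed beside its proteins. Of 26 tested initiation factors, 8 had a higher and 18 a lower estimate, with a median log2 fold change of -0.03 beside 0.04 over all genes, and of 7 elongation and release factors 4 were higher and 3 lower, with a median of 0.02. Of 4 ribosome-associated factors, 1 was higher, with a median of -0.05. That gene was Rack1, whose protein sits on the head of the small subunit, at 1729, 2082 and 1560 CPM against 1814, 1726 and 1340.1 CPM and a log2 fold change of 0.14 (SE 0.16). Ribosome assembly factors had 3 higher and 10 lower estimates with a median of -0.15. None of these lists held a gene with an edgeR adjusted p under 0.05, where 0.0289% of all tested genes had one (3 of 10398).

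The 8 tested genes of the RNA polymerase I list were subunits of this enzyme, which transcribes ribosomal RNA, together with the factor Tif-IA. All 8 had a lower estimate, where 53.5% of all genes had a higher one. Their median log2 fold change was -0.31, with medians of -0.18, -0.41 and -0.22 in the 3 pairs. In this list 1 gene had a lower estimate with an unadjusted p under 0.05, a share near the 12.5% of all genes. This was Polr1F, which stood at 14.3, 14.6 and 16.6 CPM in FB-Dp110DN and 24.6, 23.3 and 25.5 CPM in FB-GAL4, with no overlap and a log2 fold change of -0.69 (SE 0.14, edgeR adjusted p = 0.157, DESeq2 adjusted p = 0.0167). Of all genes, 21.0% were lower without overlap, and the DESeq2 Wald test called 9.55%. Polr1D stood at 7.26, 7.47 and 7.21 CPM against 9.09, 9.49 and 10.2 CPM, with a log2 fold change of -0.39 (SE 0.18). Among assembly factors, Nopp140, a nucleolar chaperone, stood at 145, 117 and 138 CPM against 168, 186 and 173 CPM, a log2 fold change of -0.41 (SE 0.15, edgeR adjusted p = 0.171). Nop60B, the pseudouridine synthase of ribosomal RNA, had a log2 fold change of -0.48 (SE 0.20, edgeR adjusted p = 0.196). These estimates lay below those of the 74 ribosomal protein genes, but the difference between the lists was not tested. The summed germline markers were also lower in FB-Dp110DN in each pair, and their part in these estimates was not tested.

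Of 13 tested regulators of ribosomal protein genes and translation, 6 had a higher and 7 a lower estimate, with a median of -0.04. At an unadjusted edgeR p under 0.05, 1 was higher and 1 lower, against 13.1% and 12.5% of all genes. Trf2, the TBP-related factor that serves the core promoters of fly ribosomal protein genes, stood at 72.2, 64.9 and 83.6 CPM in FB-Dp110DN and at 92.4, 98.2 and 96.3 CPM in FB-GAL4. The groups did not overlap, as for the 21.0% of all genes that were lower without overlap. The log2 fold change of Trf2 was -0.39 (SE 0.13, edgeR adjusted p = 0.166). Thor, the translation inhibitor 4E-BP and a target of the factor FOXO, stood at 549.9, 809.9 and 450.4 CPM against 466, 469 and 317 CPM. It was higher in each pair, by 0.24, 0.79 and 0.51, with a log2 fold change of 0.51 (SE 0.16, edgeR adjusted p = 0.158, DESeq2 adjusted p = 0.0306). The DESeq2 Wald test called 9.55% of all genes. Myc, a driver of ribosome production, had a log2 fold change of -0.12 (SE 0.15). Xrp1, which is induced when ribosomal protein genes are lost, had pair differences of 0.44, 0.52 and -0.22 and a log2 fold change of 0.25 (SE 0.19). Myc and Xrp1 were chosen from the list after their values were seen.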

How the data were processed

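RNA from fat bodies of adult females was sequenced by the authors as mRNA libraries (1 ug of RNA, 10 PCR cycles), aligned with TopHat2 2.0.11 to BDGP5 and counted with HTSeq. The version and strand setting of HTSeq are not given in the sources used here, so overlapping genes and near-identical copies are uncertain. The deposited values used are raw read counts per gene for 6 libraries. The mean, fold change, error, statistic and p-values of the authors' own DESeq2 comparison, held in the same table, were not used.

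Symbols matched 15002 of 15682 identifiers. Arms and exon lengths came from the Ensembl 115 annotation of BDGP6, and no coordinates are given because that build differs from the one counted. Total counts of 22607341 to 36870161 per library limit the precision for low genes. A level at or below 3 counts throughout was treated as not detected.

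Genes were tested with edgeR 4.0.16 (R 4.3.3) after filterByExpr, which left 10398 genes, with TMM factors, the quasi-likelihood F test and the replicate number as a block. A call was an adjusted p (Benjamini-Hochberg) under 0.05. The SE of a log2 fold change was its size divided by the root of F, and intervals used the matching t distribution. Pair differences used a prior count of 2. The study's methods pair mutant and control samples by processing day, without naming the numbers, and same-numbered libraries were taken as the pairs. Their deviations from the group means correlated at 0.42, 0.19 and 0.59, but those of FB-Dp110DN replicate 1 with control replicate 2 at 0.38 and of FB-Dp110DN replicate 2 with control replicate 1 at 0.22. Control replicates 2 and 3 share a sample description, so their numbers rest on titles. The p-values of the fits with a block rest on the spread left after the block, with dispersion information shared between genes. Those of the 3 against 3 permutation tests rest on the spread between these libraries.

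Genes named are Pi3K92E, up to 6 ribosomal protein genes of smallest p in each direction, the 5 highest and 5 lowest per kb, members of related pairs, RpL32, sta, untested genes and the 2 of smallest p in each pathway list. By that rule eIF3j, eIF4E1, eEF1alpha2, eRF3 and bic (a beta subunit of the nascent polypeptide-associated complex) had log2 fold changes of 0.26, -0.27, 0.20, -0.23 and -0.13. The genes and lists were chosen with earlier results of these data known. Alternatives were no block, DESeq2 1.42.0 size factors, library totals, removal of mitochondrial-genome genes, TMM without ribosomal protein genes, the DESeq2 Wald test, 2 other filters, a threshold of 0.1 and each replicate pair left out. The code was tested on simulated counts.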

Additional observations from a re-analysis of the deposited data

How the results depend on the processing

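The count of ribosomal protein genes called was 0 under each alternative run, in edgeR and in the DESeq2 Wald test, and at most 1 had an unadjusted p under 0.05 in any of them. Every edgeR fit but that without replicate 3 called at most 9 genes over all. A count of 0 among the ribosomal protein genes therefore says little in those fits. Over all genes, against 3 calls, the DESeq2 Wald test gave 993, no filter gave 9, the fit with no replicate block gave 0, and the fits without a replicate ran from 0 to 875. The 875 came without replicate 3, where the prior degrees of freedom were infinite, so that every gene shared 1 quasi-dispersion. The median of the ribosomal protein genes was -0.087 with library totals, which moved the median of all genes by -0.22, and ran from 0.073 to 0.24 across the fits without a replicate. With no replicate block it was 0.12, and leaving out the block changed no call of a ribosomal protein gene. The difference in their share of counts kept its sign, from -0.60 to -0.11 percentage points without a replicate, -0.21 outside mitochondrial-genome genes and -0.32 without the 2 genes of most counts, and its exact sign-flip p over the paired libraries was 0.5, where 0.25 is the smallest possible.

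Among 482 combinations of an alternative with Pi3K92E, 29 ribosomal protein genes or 14 pathway genes, 452 changed neither direction nor call. In 4 a gene became a call, which were Pi3K92E without replicate 3 and Pi3K92E, Polr1F and Thor in the DESeq2 Wald test, and 26 reversed. Of the reversals, 21 came with library totals and are part of the common shift above. The log2 fold changes there were -0.033 for RpL22, -0.028 for RpL24, -0.029 for RpLP1, -0.053 for RpL23, -0.046 for sta, -0.062 for RpLP2, -0.068 for RpL32, -0.084 for RpS28b, -0.087 for RpL34b, -0.086 for RpL37-1, -0.092 for RpL7, -0.093 for RpS14b, -0.10 for RpS14a and RpS27A, -0.11 for RpL39, RpL41 and RpS15Aa, -0.15 for RpS19a, -0.20 for RpL34a, -0.075 for Rack1 and -0.015 for eEF1alpha2. RpL24-like turned to 0.0099 with no replicate block and ran from -0.24 to 0.12 across the fits without a replicate, RpL34a ran from -0.071 to 0.15 and Myc from -0.27 to 0.0081 there. The cause was not tested. RpS19b was not tested without replicate 3 or with at least 10 counts in every library. Depth limits statements on RpS10a, RpS19b and the 5 genes at or under 3 counts in every library.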
